A study of Arabidopsis thaliana and Lactuca sativa with 158 samples.

Results

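Always red leaves of Arabidopsis thaliana plants carrying 35S::RUBY_3Q were compared with always red leaves of plants carrying 35S::RUBY. The members were the leaf libraries of genotype Col-0 whose titles read always red: 3 RUBY_3Q libraries and 11 35S::RUBY libraries, 14 of the 158 libraries of the series, with lines named T1 set aside. The study enriched chosen loci from total RNA with biotinylated probes and read their cDNA as long nanopore reads, in plants with and without the RUBY transgene. All plants in use had the ecotype Columbia-0 and were 4 weeks old, and they grew in 18 h of light and 6 h of dark at 22 °C. No further allele or treatment was named for either group, and the other red leaves of Col-0 plants served as comparisons: 2 RUBY_3Q and 13 35S::RUBY fully red libraries, 2 red libraries of T1 lines with 35S::RUBY, and 4 always red libraries with ZmUBQ::RUBY.

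RUBY is a visible reporter in which several betalain enzymes are read from one transcript, so that cells expressing it turn tyrosine into a red pigment. The 35S promoter of cauliflower mosaic virus drives it strongly in most tissues, and strongly transcribed transgenes are a classic target of RNA silencing in plants: an RNA-dependent RNA polymerase copies unusual transcripts into double-stranded RNA, Dicer enzymes cut it into small RNAs, and Argonaute proteins use these to destroy or silence matching RNA. Red leaves are leaves in which the reporter is still expressed. Most mature messenger RNAs carry a poly(A) tail, and transcripts without one are among the forms that can enter silencing. The labels do not say what the 3Q version changes in RUBY, so the comparison is between constructs by name.

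All 3 RUBY_3Q libraries came from 1 line, SL2621, and the 11 35S::RUBY libraries came from 6 lines. The replicate numbers were the labels' own, and the labels do not say whether they mark separate plants, so p-values measure the spread between libraries. Libraries were sorted into what are called numbering sets here. The 35S::RUBY libraries were divided by line and by the number in front of the library name, 4 into a first set and 7 into a second. RUBY_3Q and the T1 lines were put in a shared set by line name, not by these numbers. Both lack antisense columns in all reads. The labels do not say whether the libraries of a set were handled together. Construct, line, numbering set and the layout of the tables therefore cannot be told apart in the main comparison. The T1 libraries, which are 35S::RUBY placed in the numbering set of RUBY_3Q, are given beside it for many results, not for all. The labels do not say what T1 means. In contrasts with the T1 libraries, construct, line and the T1 name cannot be told apart. The 14 libraries held from 193457 to 1488253 sense reads on targets, as recovered from the steps between low values, with 1 read worth 0.506 to 3.70 units of deposited signal. None of 10 marker genes for leaf, flower and phloem was a capture target, so the tissue could not be checked by markers, and in whole leaves fewer cells of a type and less RNA per cell cannot be told apart.

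The RUBY transcript itself was abundant in every always red leaf, and its total level did not separate the constructs. The RUBY sense signal, in the deposited normalized units, was 476393 in SL2621_2, 288424 in SL2621_4 and 402686 in SL2621_5. In 35S::RUBY it ran from 158097 in MK034_2 through a median of 310809 to 424227 in MK045_2. The groups overlapped, with SL2621_4 below the 35S::RUBY median. The mean was 389168 ± 94711 (SD, n = 3) against 309100 ± 84901 (SD, n = 11), a log2 difference of 0.36 (two-sided exact permutation test, p = 0.223, adjusted over 6 RUBY measures 0.267). RUBY made up 61.8%, 38.3% and 54.8% of all sense signal on targets in the RUBY_3Q libraries, and 22.1% to 51.6% with a median of 46.5% in 35S::RUBY, with no correction for transcript length.

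The composition of the RUBY reads differed. The tables divide sense reads into those marked pA and those not marked, a mark that the labels do not define further and that is read here as a poly(A) tail. Reads marked pA gave 289710, 187612 and 247707 units in SL2621_2, SL2621_4 and SL2621_5, within the 113847 to 323202 of 35S::RUBY. Their log2 difference was 0.07 (exact permutation test, adjusted p = 0.830), and it changed sign, to -0.072 and -0.029, without SL2621_2 or without MK034_2. Reads not marked pA gave 186684, 100811 and 154979 units, against 44250 to 101025 with a median of 76494 in 35S::RUBY. Here 2 RUBY_3Q libraries stood above all 35S::RUBY libraries and SL2621_4 fell just under the highest of them, MK045_2. The unmarked signal was 2.05-fold higher in RUBY_3Q, a log2 difference of 1.04 (exact permutation test, p = 0.00549, adjusted p = 0.0165), and the call was lost without SL2621_2 (0.84) or SL2621_5 (0.98), each with an adjusted p of 0.0769.

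**Figure D1:**
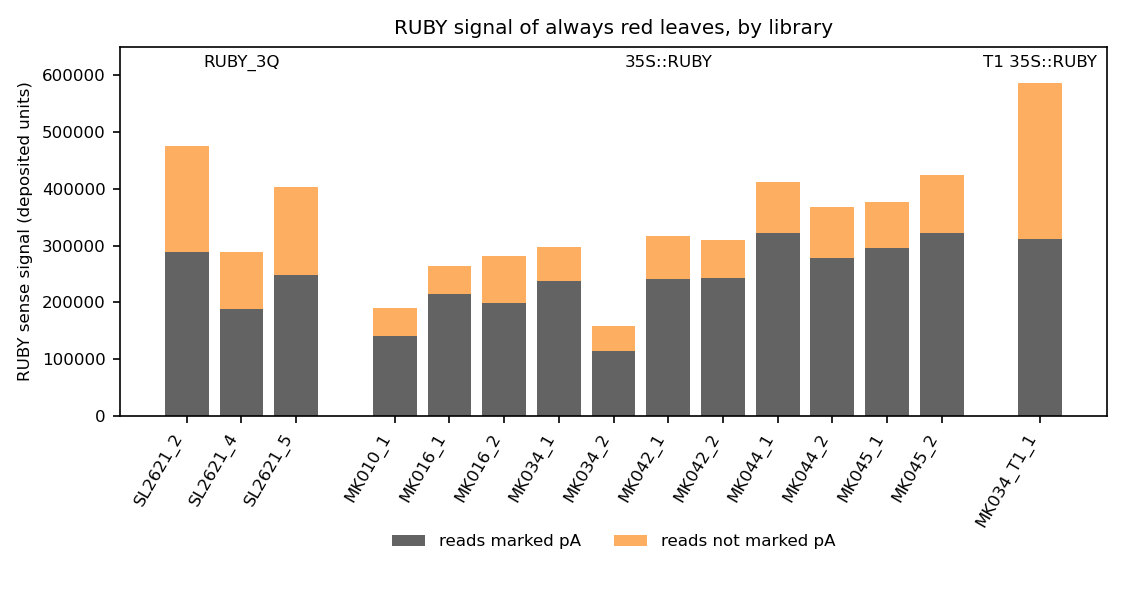
RUBY sense signal of each always red library, in deposited units, as stacked bars of reads marked pA (grey) and not marked (orange). The grey parts of the 3 RUBY_3Q libraries, 187612 to 289710 units, lie within those of the 11 35S::RUBY libraries, while the orange parts reach 186684 against at most 101025 units; the T1 35S::RUBY library at the right has the tallest orange part.

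As a share, 60.8%, 65.0% and 61.5% of the RUBY sense signal of the RUBY_3Q libraries was marked pA. The 35S::RUBY libraries ran from 70.8% in MK016_2 through a median of 76.2% to 81.3% in MK016_1. The groups did not overlap, and the gap between the highest RUBY_3Q and the lowest 35S::RUBY library held no library of either. The share was 62.5% ± 2.27 (SD, n = 3) against 76.4% ± 3.18 (SD, n = 11), 13.9 percentage points lower in RUBY_3Q (two-sided exact permutation test, p = 0.00275, the smallest this design can give, adjusted p = 0.0165). Without SL2621_2 or SL2621_5 the difference was -13.1 or -13.4 points and the adjusted p 0.0769, in a design whose smallest p is then 0.0128.

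The red leaves of T1 lines lay on the other side. MK034_T1, the always red T1 library with plain 35S::RUBY, had 274816 units of RUBY not marked pA and a marked share of 53.2%, lower than every RUBY_3Q library, and MK016_T1, the fully red one, had a share of 50.2%. Within the numbering set of RUBY_3Q, the 5 red RUBY_3Q libraries had a marked share 12.7 points higher than the 2 T1 libraries, and unmarked signal lower by a log2 of -0.80 (exact permutation test within leaf classes, p = 0.0833 for each, the smallest that design allows, adjusted p = 0.25). The total RUBY signal was 586984 units in MK034_T1, above the 3 always red RUBY_3Q libraries, and 523347 units in MK016_T1, between the 2 fully red ones at 479306 and 525634. Over the 5 red RUBY_3Q libraries the log2 difference from the T1 libraries was -0.36 (exact permutation test within leaf classes, adjusted p = 0.833). With MK034_T1 counted among the 35S::RUBY libraries, the unmarked signal (0.87), the marked share (-12.0 points) and the full-length signal (3.74) were no longer called (exact permutation test, adjusted p = 0.0824, 0.0659 and 0.0659), and the unmarked signal (0.86) was not called after centring each library on the median target (exact permutation test, adjusted p = 0.111). The low marked share was thus measured in both constructs within that set, and neither the construct nor the set was tested apart from the other. The 4 ZmUBQ::RUBY always red libraries, from another set, had marked shares of 75.3% to 79.3%.

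**Figure D2:**
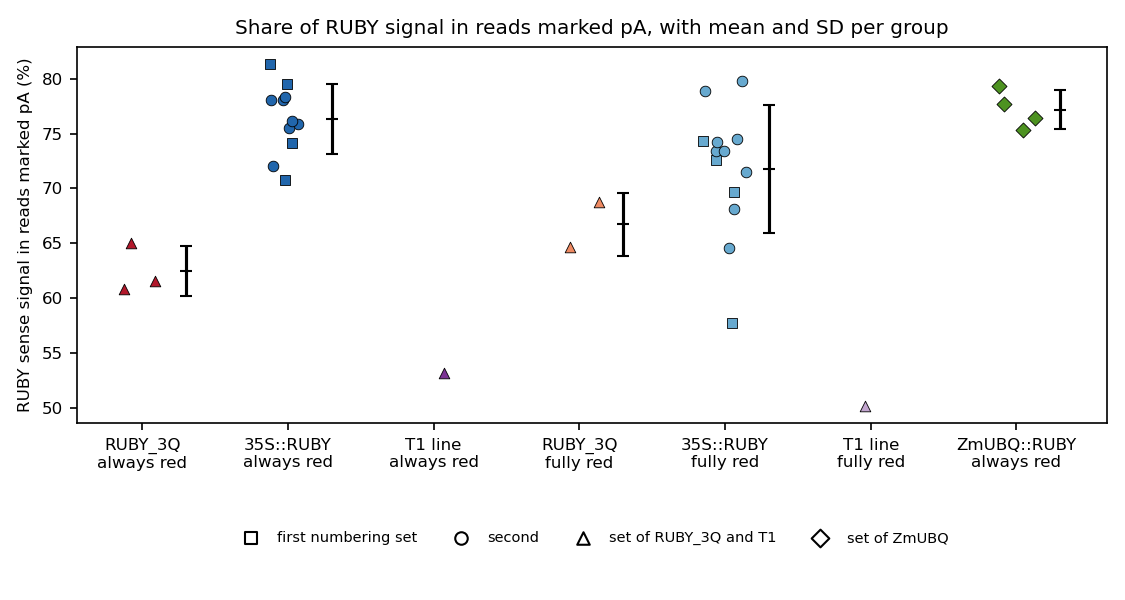
Share of the RUBY sense signal in reads marked pA, in percent, for every red Col-0 library, with the mean and SD beside groups of 2 or more; the symbol shape gives the numbering set. The 3 always red RUBY_3Q libraries lie between 60.8% and 65.0%, below all 11 always red 35S::RUBY libraries and above both T1 libraries at 53.2% and 50.2%.

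Full-length RUBY molecules, counted after collapsing reads by molecular identifier, were more numerous in RUBY_3Q. The full-length RUBY signal was 381 in SL2621_2, 199.8 in SL2621_4 and 749 in SL2621_5, from 736, 247 and 1481 molecules. In 35S::RUBY it ran from 0 in MK042_1 through a median of 26.0 to 219.65 in MK016_2, from at most 300 molecules. Only MK016_2 of the 11 35S::RUBY libraries reached into the RUBY_3Q range. The log2 difference on signal plus 1 was 4.08 (exact permutation test, p = 0.0137, adjusted p = 0.0206), and per unit of total RUBY signal it was 3.72 (p = 0.0137, adjusted p = 0.0206, same exact permutation test).

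RUBY was 13.5%, 4.21% and 19.3% of all full-length signal in the RUBY_3Q libraries and at most 3.50% in 35S::RUBY. The call on full-length RUBY was lost without any one of the 3 RUBY_3Q libraries, with log2 differences of 4.08, 4.55 and 3.60 without SL2621_2, SL2621_4 and SL2621_5. The call on the ratio to all RUBY signal was lost as well without these, with 3.89, 3.99 and 3.28, and without MK010_1 (3.56), MK042_2 (3.58) or MK044_1 (3.50). MK034_T1 had a full-length RUBY signal of 367 and MK016_T1 one of 146. Within the numbering set of RUBY_3Q the differences were -0.35 for the signal and 0.011 for the ratio (exact permutation test, adjusted p = 1 for both).

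Fully red leaves gave the same comparison of constructs in other leaves, with 35S::RUBY lines that differed in part. Lines MK025, MK040, MK041 and MK043 were only among the fully red 35S::RUBY libraries. Lines MK010 and MK034 were only among the always red ones, so leaf class and line cannot be fully told apart. The RUBY signal was 479306 and 525634 units in the 2 RUBY_3Q libraries and 179422 to 591511, median 390352, in the 13 35S::RUBY libraries, inside their range (log2 difference 0.47, exact permutation test, adjusted p = 0.4). The marked share was 68.7% and 64.7% against 57.7% to 79.8%, again inside (difference -5.04 points, exact permutation test, adjusted p = 0.443). Full-length RUBY signal was 159 and 42.5 against 0 to 475 (0.58, exact permutation test, adjusted p = 0.981). The difference between constructs was not shown to depend on leaf colour for any of the 6 RUBY measures (exact permutation within leaf classes, p from 0.151 to 0.789, smallest adjusted p = 0.482). For the marked share the 2 differences were 8.86 points apart.

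Few captured loci were called in all reads. Of 57 targets tested with limma, 4 were called at an adjusted p under 0.05, a background of 7.02%, with 1 higher and 3 lower in RUBY_3Q. The median log2 difference over targets outside the construct was -0.10. Both scaling alternatives kept these 4 and their directions. Scaling by summed signal called 5 targets, 2 higher and 3 lower, and centring on the median target called 10, 2 higher and 8 lower. The balance turned with the 35S::RUBY libraries used: against the first numbering set alone 8 were higher and 2 lower, and against the second alone 3 were higher and 13 lower.

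TAS3, the precursor of trans-acting small RNAs that target auxin response factor messages, was lower in RUBY_3Q. Its signal was 8135 in SL2621_2, 24023 in SL2621_4 and 20841 in SL2621_5, and from 26230 in MK044_2 through 69464 to 96218 in 35S::RUBY. The groups did not overlap. The log2 difference was -1.97 (SE 0.36, limma, adjusted p = 0.000708), and it kept its call without each library in turn. The T1 libraries, at 20596 and 26091, were at RUBY_3Q levels, and within the numbering set the difference was -0.39 (limma, adjusted p = 0.473). In fully red leaves RUBY_3Q had 18262 and 20781 units, inside the 7957 to 98001 of 35S::RUBY.

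AT5TE85500, a transposable element that the tables class as an RNA-directed DNA methylation locus, was listed at 0 in all 3 RUBY_3Q libraries. It ran from 19.5 to 866 units, median 80.8, in 35S::RUBY, and no library of that group was at 0. Against the worth of 3 reads per library, 1.52 to 2.43 units, its mean was at least 117-fold lower in RUBY_3Q. This bound is in reads, which are not collapsed to molecules here. The worth of a read was taken from the full-length values, as all reads of SL2621_2 and SL2621_5 gave no step. The fitted log2 difference of -6.84 (SE 1.21, limma, adjusted p = 0.000708) depends on the pseudocount and is no bound. The fully red RUBY_3Q leaves of the same line had 43.0 and 182 units and the T1 libraries 258 and 101. Among the fully red 35S::RUBY libraries, MK016_3 and MK044_3 were at 0.

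LBD41, a LOB domain gene known as a hypoxia-responsive transcription factor gene, was higher. Its signal was 3930, 7207 and 8470 in SL2621_2, SL2621_4 and SL2621_5, and 251 to 4473, median 963, in 35S::RUBY. Of the 11 35S::RUBY libraries only MK044_1 reached the lowest RUBY_3Q value. The log2 difference was 2.57 (SE 0.69, limma, adjusted p = 0.0260), and the call was lost without SL2621_4 (2.46, limma, adjusted p = 0.176) or SL2621_5 (2.34, limma, adjusted p = 0.177), and by limma with no trend (adjusted p = 0.0557). The T1 libraries had 492.92 and 2325 units, and within the numbering set the difference was 1.68 (limma, adjusted p = 0.187). In fully red leaves RUBY_3Q had 717 and 3552 units, inside the 98.2 to 5478 of 35S::RUBY (1.32, limma, adjusted p = 0.822).

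ALY1 (AT5G27610, ALWAYS EARLY 1), named for its likeness to a Drosophila gene, was lower. It had 322, 130 and 143 units in RUBY_3Q and 245 to 1847, median 715, in 35S::RUBY, where only MK034_1 lay below the highest RUBY_3Q library. The log2 difference was -2.19 (SE 0.64, limma, adjusted p = 0.0370), the weakest of the 4 calls. It was lost without any one of 8 libraries (SL2621_4, SL2621_5, MK034_2, MK042_1, MK042_2, MK044_2, MK045_1 or MK045_2), with log2 differences from -2.60 to -1.95 over all 14 omissions, and with MK034_T1 added (-2.09, limma, adjusted p = 0.0653). The T1 libraries had 348 and 267 units, and within the numbering set the difference was -0.029 (limma, adjusted p = 0.972). In fully red leaves RUBY_3Q had 654 and 431 units, inside the 381 to 2096 of 35S::RUBY (-0.88, limma, adjusted p = 0.822). The element AT5TE35515 had 221 units in SL2621_4 and 0 in SL2621_2, SL2621_5 and all 11 35S::RUBY libraries. In full-length reads ALY1 averaged 0.34 units in RUBY_3Q and 5.74 in 35S::RUBY, and AT5TE35515 5.24 and 4.75. How reads were assigned between ALY1 and this element was not tested.

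**Figure D3:**
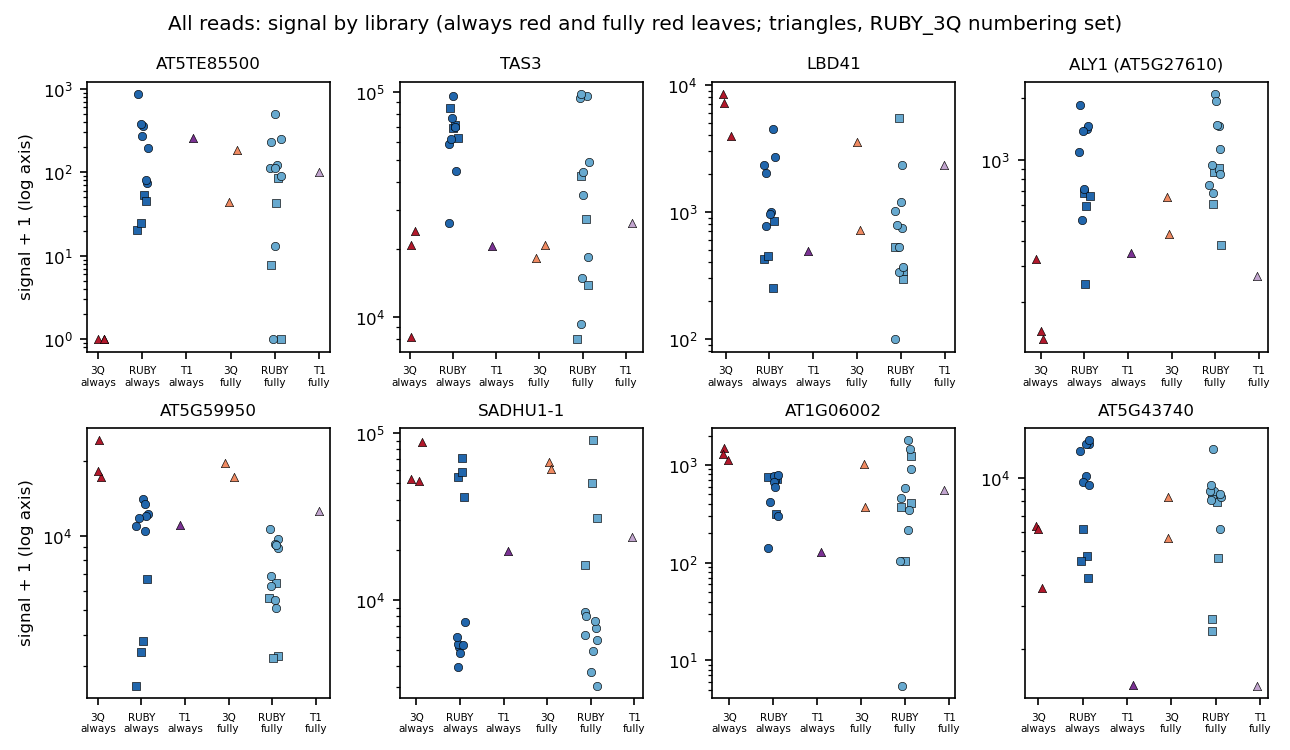
Signal plus 1 in all reads, on a log axis, of 8 targets in each red library of RUBY_3Q (3Q), 35S::RUBY (RUBY) and T1 lines, in always red (always) and fully red (fully) leaves. Squares and circles mark the first and second numbering set and triangles the set of RUBY_3Q and T1. TAS3 in RUBY_3Q, 8135 to 24023 units in always red leaves, lies beside the T1 libraries at 20596 and 26091.

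Of the 57 targets, 2 (3.51%) were higher in all 3 RUBY_3Q libraries than in all 11 35S::RUBY libraries and 2 (3.51%) were lower. The lower pair was TAS3 and AT5TE85500, and the higher pair was AT5G59950 and AT1G06002. AT5G59950, a protein-coding gene, had 17191, 24251 and 18298 units in SL2621_2, SL2621_4 and SL2621_5, against 2488 to 6720 in the first set of 35S::RUBY and 10472 to 14097 in the second. Its log2 difference of 1.31 in all reads was not called (limma, adjusted p = 0.119) but was called against each set alone, at 2.36 and 0.70, and under both scalings. The 2 fully red RUBY_3Q libraries had 17278 and 19725 units, so that all 5 red RUBY_3Q libraries stood above all 26 red 35S::RUBY libraries, T1 lines included, whose highest value was 14097. The 4 ZmUBQ::RUBY libraries stood higher still, at 22089 to 30544. Within the numbering set of RUBY_3Q the difference was 0.71 (limma, adjusted p = 0.0862). AT1G06002, a long non-coding RNA that the tables pair with AT1G06000, had 1115, 1505 and 1290 units against 139 to 784 (limma, adjusted p = 0.288).

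SADHU1-1, a non-coding retrotransposon, showed how far the sets of 35S::RUBY lay apart. It had 53197, 88876 and 51922 units in RUBY_3Q. The first set of 35S::RUBY, at 41642 to 71346, lay at the same level and the second, at 3954 to 7355, lay far below. The pooled log2 difference was 2.32 (limma, adjusted p = 0.119), and within the numbering set of RUBY_3Q, against T1 libraries at 19698 and 23892, it was 1.55 (limma, adjusted p = 0.00261).

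None of the 8 silencing genes among the targets was called in all reads (limma, 0 also at an unadjusted p under 0.05), a count near the background of 7.02% over all targets, and their median log2 difference was 0.02 against -0.07 over all tested targets. AGO1, the main Argonaute of microRNA pathways, had 12757 ± 1139 (SD, n = 3) units in RUBY_3Q and 13708 ± 5657 (SD, n = 11) in 35S::RUBY. AGO4, an Argonaute of DNA methylation, had 4104 ± 1640 and 3462 ± 1003. RDR6, the polymerase that makes double-stranded RNA from transgene transcripts, differed by -0.07 (SE 0.54), and DCL4, the Dicer that cuts it, by 0.02 (SE 0.45). Against the T1 libraries, where 25.5% of targets were called, SDE3 (6.86) and RDR6 (1.89) were called higher (limma, adjusted p = 0.00116 and 0.0110). The other silencing genes were not called there. SDE3 had 65.0 and 0.73 units in MK034_T1 and MK016_T1, against 1182 to 1535 in the 5 red RUBY_3Q libraries. That fit was not scaled for the larger RUBY share of the T1 libraries.

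None of the 3 targets linked to tyrosine was called either, again near that background (limma, 0 at an unadjusted p under 0.05), with a median of 0.25. HST, a prenyltransferase of plastoquinone synthesis, had 20838 ± 3916 units against 18758 ± 7628, and PDS1, the dioxygenase upstream of it, 17514 ± 7883 against 12374 ± 4024.

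By the class in the tables, 0 of 12 phasiRNA loci, 0 of 10 methylated and 0 of 6 unmethylated transposable elements were called in all reads (limma; 0, 1 and 1 at an unadjusted p under 0.05), with median log2 differences of -0.30, -1.16 and -1.18. With 7.02% of all targets called, counts of 0 in classes of this size are near the background. In these classes AT1G63130, with 6989 ± 1893 units in RUBY_3Q and 6719 ± 3018 in 35S::RUBY, and AT5G43740, with 5362 ± 1567 and 9355 ± 3969, were the phasiRNA loci of highest signal. AT2G02210 (122 ± 88.7 and 194 ± 174) and AT2G02190 (56.8 ± 98.3 and 82.2 ± 179) were those among the methylated elements. Of the 5 RNA-directed DNA methylation loci 2 were lower, TAS3 and AT5TE85500, with a median of -1.33 over the class. Of 21 protein-coding targets 1 was lower, ALY1, and of 2 tasiRNA targets 1 was higher, LBD41. These are the 4 calls given above, in classes too small or counts too low to be read against the 7.02%.

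Split by pA mark, 6 of 98 target columns were called (6.12%, limma), 2 higher and 4 lower. Scaling by summed signal called 4 of each, and median centring called 11, 3 higher and 8 lower. Of the 6 calls TAS3 fell by 2.32 on the log2 scale in reads marked pA (8323 ± 3703 against 41994 ± 15943 units) and fell by 1.46 in the others. LBD41 rose in marked reads by 4.11 (2077 ± 480 against 183 ± 137). In unmarked reads ALY1 and AT5TE85500 were lower, at -3.41 and -6.79, and SADHU1-1 rose by 2.05. RUBY not marked pA, called by the exact test, missed the threshold in this fit (1.04, limma, adjusted p = 0.0552). Without SL2621_2 1 column was called, and without SL2621_5 3.

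The pA mark was also compared over the other targets. Of 44 targets, 3 (6.82%) were called in the fit of the ratio of marked to unmarked reads. Apart from these calls, 3 (6.82%) were higher and 2 (4.55%) lower in all RUBY_3Q libraries than in all 35S::RUBY libraries. RUBY had a log2 difference of this ratio of -0.97 (SE 0.21, limma, adjusted p = 0.0188). AT1G62920, a protein-coding gene classed as an RNA-directed DNA methylation locus, moved as RUBY did in this comparison, at 56.0%, 57.3% and 55.0% marked against 62.7% to 75.8% (-0.89, limma, adjusted p = 0.0188). Its T1 libraries, at 65.3% and 74.7%, lay within the 35S::RUBY range, and the fully red RUBY_3Q libraries had 68.4% and 54.4%. Within the numbering set of RUBY_3Q its difference was -0.71 (limma, adjusted p = 0.216), opposite in sign to that of RUBY. The third call, AT5TE85500, has no reads in RUBY_3Q and hence no share. Its ratio there was set by the pseudocount, so this call measures no change in the ratio. AT5G59950 had 73.0% ± 3.69 marked against 61.6% ± 4.69 (0.76, limma, adjusted p = 0.0624). No target kept a call without any one of the RUBY_3Q libraries, when 0 were called each time, and 5 were called without MK034_2. Within the numbering set of RUBY_3Q 0 of 44 (0%, limma, 8 at an unadjusted p under 0.05) were called, with RUBY at 0.76 (limma, adjusted p = 0.216).

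**Figure D4:**
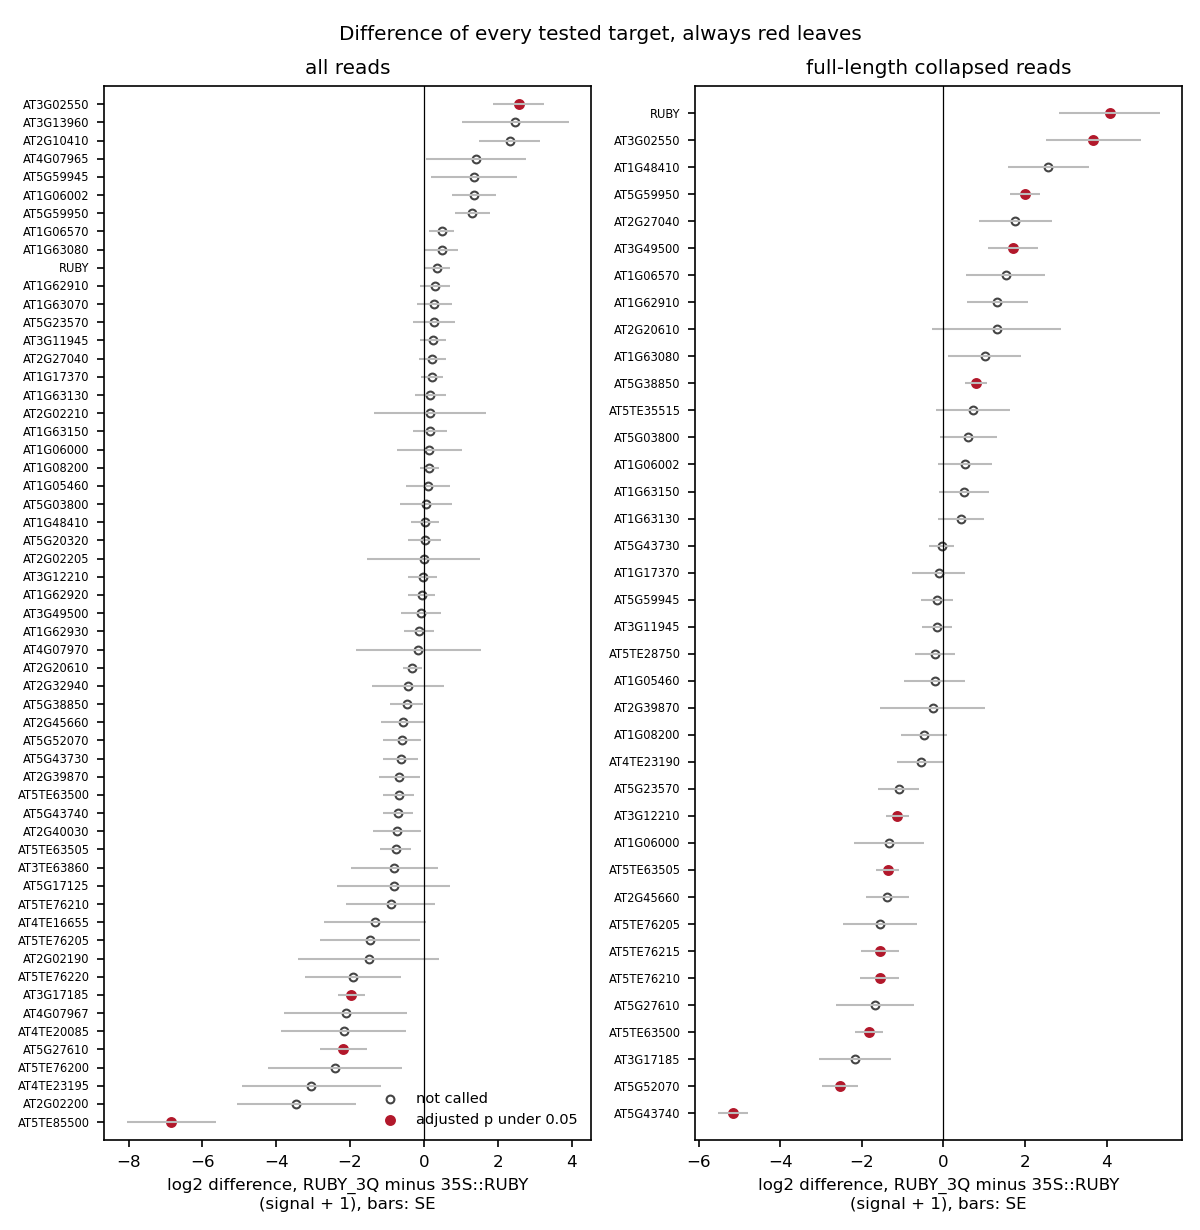
Log2 difference, RUBY_3Q minus 35S::RUBY, of every tested target in always red leaves, with its standard error, in all reads (left, 57 targets) and in full-length reads (right, 38 targets); filled points are called by limma. In all reads 4 points are filled and RUBY at 0.36 is not; in full-length reads 12 are filled, from RUBY at 4.08 to AT5G43740 at -5.16.

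In full-length reads a larger share of the targets was called, several of them at the same locus. Of 38 targets 12 were called (31.6%, limma), 5 higher and 7 lower, and the split was 5 higher and 3 lower under median centring and 7 higher and 3 lower under scaling by summed signal. Of the 38, 2 (5.26%) were higher and 5 (13.2%) lower in all RUBY_3Q libraries than in all 35S::RUBY libraries. With MK034_T1 added to 35S::RUBY, 2 targets were called, AT5G43740 and AT5G59950, and without SL2621_2 6 were. By class, 4 of 10 phasiRNA loci (1 higher, 3 lower, median 0.19) and 3 of 4 unmethylated transposable elements (all lower, median -1.56) were called. The 3 lower phasiRNA targets were AT5G43740 and its paired elements AT5TE63500 and AT5TE63505. The 3 unmethylated ones were AT5G52070 and its elements AT5TE76210 and AT5TE76215. These calls are not separate results, and the 31.6% and the class counts take in the same locus several times.

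AT5G43740, a phasiRNA locus, had the largest fall. Its full-length signal was 7.25, 13.8 and 3.54 in RUBY_3Q and 216 to 614, median 255, in 35S::RUBY, with no overlap (log2 difference -5.16, SE 0.38, limma, adjusted p = 1.31e-08). The T1 libraries, at 3.32 and 1.46, were as low, and in all reads AT5G43740 was not called (-0.71, limma, adjusted p = 0.537). The tables pair it with the elements AT5TE63500 and AT5TE63505, which were also lower, at 51.8, 110.01 and 97.2 against 216 to 614 for AT5TE63500 (-1.82, limma, adjusted p = 0.000673) and at a difference of -1.37 for AT5TE63505 (limma, adjusted p = 0.00177). In all 28 red libraries outside the numbering set of RUBY_3Q, AT5G43740 carried 100% to 101% of the signal of AT5TE63500. In the 7 libraries of that set, T1 lines included, it carried 2.01% to 21.5%, and how the reads were assigned to the gene and the element in each set of tables was not tested.

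AT5G52070, classed with unmethylated transposable elements, fell by 2.54 on the log2 scale (12.9, 72.8 and 63.8 against 131 to 482, limma, adjusted p = 0.000589). Without SL2621_2 it was -1.77 (limma, adjusted p = 0.00313), and with MK034_T1 added it was -2.20 and no longer called (limma, adjusted p = 0.0562). Its elements AT5TE76210 and AT5TE76215 were lower, at -1.57 and -1.56 (limma, adjusted p = 0.0191 each), and hold nearly the same signal, so they are not separate results. Both lost their calls without SL2621_2, where the differences were -0.74 each, and under both scalings. AT5G52070 carried 146% to 198% of the signal of AT5TE76210 in the other sets and 59.9% to 100% in the set of RUBY_3Q. AT3G12210, a protein-coding gene, fell by 1.13 (106, 179.58 and 113 against 215 to 422, limma, adjusted p = 0.00539), and its difference was -0.19 with no call under scaling by summed signal. AT5TE63505 likewise had no call under either scaling, at -0.44 by summed signal.

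Of the 5 targets that rose in full-length reads, AT5G59950 had 263, 533 and 326 units against 55.4 to 151, with no overlap (2.00, SE 0.36, limma, adjusted p = 0.000589). The 2 fully red RUBY_3Q libraries had 303 and 341, above all 26 red 35S::RUBY libraries, of which the T1 libraries were highest at 185 and 163. The 4 ZmUBQ::RUBY always red libraries stood higher than all of these, at 611 to 769.63. LBD41 had 54.3, 52.6 and 61.7 units against 0 to 23.1, also with no overlap (3.68, SE 1.17, limma, adjusted p = 0.0234). It lost its call without any one RUBY_3Q library (3.70, 3.73 and 3.61 without SL2621_2, SL2621_4 and SL2621_5). The T1 libraries had 10.6 and 16.1 units of LBD41, and within the numbering set its difference was 1.33 (limma, adjusted p = 0.183). In fully red leaves LBD41 had 12.0 and 30.0 units in RUBY_3Q, inside the 0 to 183 of 35S::RUBY. RDR6 rose by 1.71 (4.14, 5.66 and 2.53 against 0 to 5.86, limma, adjusted p = 0.0425), a few molecules per library, and lost its call without any one of 11 libraries (all but MK010_1, MK016_1 and MK045_1), at 1.49 to 1.95. It was the only called gene of 5 tested silencing genes, a share below the 31.6% called over all 38 targets. Of the 5, 3 rose and 2 fell, from -1.10 to 2.58. Their median of 1.71, against -0.16 over all 38 targets, was the value of RDR6 itself. AGO1, at 2.58, was not called (limma, adjusted p = 0.0527). AT5G38850, a phasiRNA locus, rose by 0.80 from single molecules (0.51 to 1.55 units against 0 to 0.74, limma, adjusted p = 0.0286), and was lost without SL2621_2, SL2621_4 or MK016_2 (0.59, 0.83 and 0.78). Both RDR6 and AT5G38850 also lost their calls with line means, a pseudocount of 10 or no trend. RUBY, the remaining one, rose by 4.08 (limma, adjusted p = 0.0191).

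**Figure D5:**
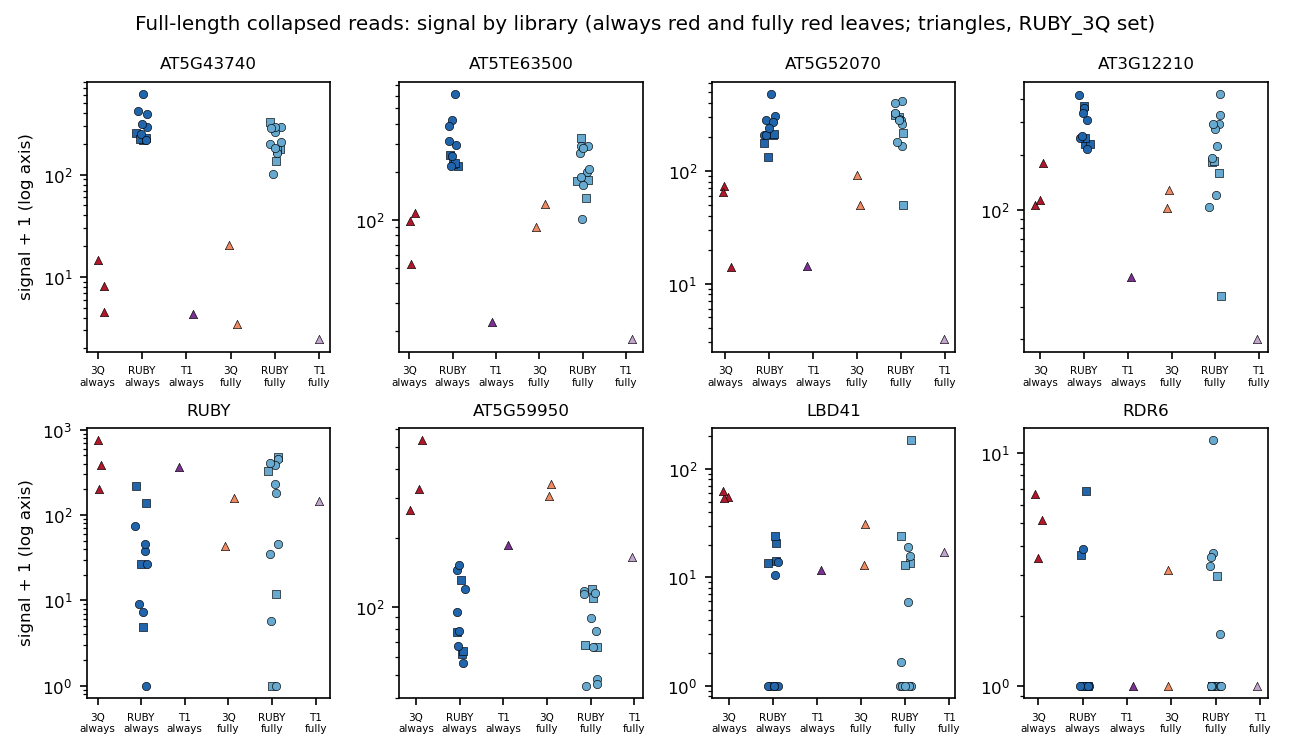
Full-length signal plus 1, on a log axis, of 8 targets in each red RUBY_3Q, 35S::RUBY and T1 library, with groups and symbols as for all reads. AT5G43740 lies between 1.46 and 19.4 units in the 7 libraries drawn as triangles and at 100.2 or above in all 35S::RUBY libraries of the other sets; AT5G59950 lies between 263 and 533 in RUBY_3Q and at most at 185 in the 35S::RUBY and T1 libraries.

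Set against the T1 libraries alone, with leaf class as a term, the 5 red RUBY_3Q libraries had 12 of 47 targets higher and 0 lower in all reads (25.5%, limma) and 9 of 35 higher and 0 lower in full-length reads (25.7%, limma). RUBY took 75.2% and 70.7% of the sense signal in the T1 libraries. That left 193247 and 216569 units outside RUBY, against 293888 to 464978 in the 5 red RUBY_3Q libraries. The fit was not scaled for this, and its part in the one-sided counts was not tested. None of the 12 was among the 4 called in the main comparison. The 9 included AT5G52070, AT5TE63500, AT5TE63505, AT3G12210, AT5TE76210 and AT5TE76215, which were lower in the main comparison, with AT5G52070 at 2.87 and AT3G12210 at 2.03. AT5G43740 had 1.33 there (limma, adjusted p = 0.215).

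In fully red leaves 1 of 64 targets was called (1.56%, limma). AT5TE76200, an element paired with AT5G52070, was listed at 0 in both RUBY_3Q libraries and at 41.8 to 365 units in the 13 35S::RUBY libraries (limma, adjusted p = 0.00173). In reads, not molecules, it was at least 86.4-fold lower against the worth of 3 reads per library, taken from the full-length values. It was at 0 in the fully red T1 library too. The difference between constructs depended on leaf colour for 0 of 66 targets (0%, limma, 1 at an unadjusted p under 0.05).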

How the data were processed

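Per the labels' protocols, leaf RNA extracted with TRIzol received a 3′ adapter, template-switching reverse transcription, barcodes, probe capture and nanopore adapters. The submitters' processing notes name cutadapt and TAIR10; the aligner and counter are not given in the sources used here. The deposited tables hold, per target, a normalized signal by strand and pA mark, per the file headers, whose scaling factor is not stated, and the percent of sense signal in each; the percentages were recomputed from the deposited signal. Of 71 targets shared by all libraries, 45 had an entry in the RefSeq gene table (TAIR10.1), used for names alone, and 26 had none. The 35S::RUBY tables list 77 targets and antisense columns, which the RUBY_3Q tables of all reads lack; comparisons therefore used sense reads in all reads, both strands in full-length reads, and the planned antisense comparison was not made. Low values were whole multiples of 1 read (30 to 69 low values per full-length table, 100% within 0.1 of a read), too few for a count model.

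Tests ran on log2(signal + 1) in limma 3.58.1 (R 4.3.3) with trend and Benjamini-Hochberg adjustment, over targets above 0 in at least 3 libraries (2 in fully red leaves; in full-length reads, those of 41 targets listed in both groups). The pA ratio was tested for targets with a mean signal of at least 50. The 6 RUBY measures had exact permutation tests over libraries (Python 3.11.15, numpy 2.4.6, pandas 2.3.3). The limma fit was tested on simulated data. Fold changes on this scale understate those of low targets. Counting intervals were not computed; 3 reads served as the floor. Named were RUBY, every called target, and the called or else the 2 most abundant members of each list (silencing machinery, tasiRNA precursors, tyrosine-linked genes, classes in the tables). AT1G06002, AT1G62920, AT5TE35515, AT5TE76200, DCL4 and SDE3 were named after their values were seen. Members and lists were chosen with earlier results of these data known. Alternatives left out libraries or lines, added MK034_T1, averaged lines, and changed the pseudocount (10), scaling, filter and trend; those by numbering set, and full-length RUBY on the sense strand alone, were chosen after seeing the data.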

Additional observations from a re-analysis of the deposited data

Results flagged for a closer look

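In 5 results every always red RUBY_3Q library lay below all 11 35S::RUBY libraries and above both T1 libraries. Each contrast was tested by itself, and the difference between the contrasts was not tested. The marked share of RUBY was lower than in all 11 35S::RUBY libraries and on average 10.8 percentage points higher than in the 2 T1 libraries (12.7 points over all 5 red RUBY_3Q libraries, exact permutation test within leaf classes, p = 0.0833, the smallest that design allows). In full-length reads the mean of the 3 always red RUBY_3Q libraries exceeded that of the 2 T1 libraries by 5.79 units for AT5G43740, 66.9 for AT5TE63500, 46.4 for AT5TE63505 and 102 for AT3G12210. For AT5G43740 the margin was small, with 3.54 units in SL2621_5 beside 3.32 in MK034_T1. How its reads were assigned between the gene and AT5TE63500 was not tested. Over all 5 red RUBY_3Q libraries the contrast with T1 was called for AT5TE63500, AT5TE63505 and AT3G12210 (limma, adjusted p = 0.0149, 0.0148 and 0.0152) and not for AT5G43740 (limma, adjusted p = 0.215). Antisense RUBY reads, which the comparison does not use, made up 0.0713% to 0.542% of RUBY reads in the 11 35S::RUBY libraries, with a median of 0.145%. The RUBY_3Q tables of all reads have no antisense columns.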

How the results depend on the processing

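No paired analysis was possible because the numbers run within a line and the groups compared share only replicate number 2.

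Leaving out 1 library gave RUBY differences of 0.20 to 0.56 for the signal, -0.072 to 0.24 for marked and 0.84 to 1.29 for unmarked signal, -15.2 to -13.1 points for the share, 3.60 to 4.55 for full-length signal and 3.26 to 4.05 for its ratio. It gave 2 to 5 called targets in all reads, 6 to 14 in full-length reads, 1 to 7 columns and 0 to 5 pA ratios; in all reads, where neither is called, AT3G12210 ran from -0.26 to 0.11 and RDR6 from -0.35 to 0.098. Without line MK010 the ratio was 3.56 with no call, without line MK034 marked signal -0.033, and without line MK044 full-length signal 3.97 and its ratio 3.52, both with no call. With MK034_T1 added, unmarked signal (0.87), the share (-12.0), full-length signal (3.74) and its ratio (3.46) lost their calls, and 2 full-length targets were called. AT3G12210 and RDR6 in all reads also turned with MK034_T1 added (0.12 and 0.092) and under summed scaling (0.11 and 0.073), and RDR6 with line means (0.0013). Median centring gave -0.11 for marked and 0.86 for unmarked signal with no call, 10 targets in all reads (2 higher, 8 lower) and 11 columns (3 higher, 8 lower); it moved the median outside the construct from -0.10 to -0.28, and summed scaling moved that of full-length reads from -0.16 to 0.47.

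Against the first set of 35S::RUBY alone, unmarked signal (1.28), the share (-14.0), full-length signal (3.11) and its ratio (2.52) had no call, with 10 targets (8 higher, 2 lower) and 22 columns (17 higher, 5 lower) called; turned in all reads, with no call, were AT3G12210 (0.52), RDR6 (0.91), AT5G38850 (0.36), AT5G43740 (0.11), AT5G52070 (0.44), AT5TE63500 (0.14) and AT5TE63505 (0.051). Against the second alone, marked signal was -0.056, with 16 targets (3 higher, 13 lower), 20 columns (6 higher, 14 lower) and 5 pA ratios called. Within the RUBY_3Q set, the 6 RUBY measures were -0.36, -0.042, -0.80, 12.7, -0.35 and 0.011, with 12 targets and 0 pA ratios called; reversed were, in all reads, AT3G12210 (2.03), RDR6 (1.89), AT5G43740 (2.06), AT5TE63500 (2.23), AT5TE63505 (2.16) and, with no call, AT5G52070 (1.09), AT5G38850 (0.79) and RUBY (-0.36), in full-length reads RUBY (-0.35), AT3G12210 (2.03), AT5G43740 (1.33), AT5G52070 (2.87), AT5TE63500 (2.20), AT5TE63505 (2.51), AT5TE76210 (2.55) and AT5TE76215 (2.56), and the pA ratio of RUBY (0.76). In fully red leaves marked signal was -0.023 under median centring, and full-length RUBY ran from -0.36 to 1.52 and its ratio from -0.90 to 1.12 without 1 RUBY_3Q library. The cause was not tested for any of these, except that with 1 RUBY_3Q library left out the smallest exact p is 0.0128. Alternatives for the antisense share were not run. Of 955 alternative values, 763 kept direction and side of the threshold, counts of calls being taken as kept within 1.5 times, and 52 turned sign.

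Depth limits the full-length results: 2322 to 10608 molecules per library stand behind them, and RUBY rests on at most 300 in 35S::RUBY. One RUBY_3Q line, unstated scaling and separate numbering sets limit every comparison.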
